A study of Mus musculus with 6 samples.

Results

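Transcripts of 60 genes that act in mitosis or at the G2/M transition were examined in naïve CD4 T cells from mouse lymph nodes. The genes were chosen by symbol from a fixed list and looked up in tables of 46983 genes. Cells were sorted on a naïve surface phenotype that included TCRb+, CD4+, CD44- and DAPI-, and their rRNA-depleted total RNA was sequenced in 3 control and 3 Rnmt cKO libraries. RNMT methylates the cap guanosine of RNA polymerase II transcripts. Control males were Rnmt fl/fl and CD4cre-, and Rnmt cKO males were Rnmt fl/fl and CD4cre+. All mice had a C57B6/J background, and their age was not given in the sources used here. The loxP sites flank exon 3 of Rnmt, and Cre was driven by Cd4 regulatory sequence, which is active from the thymocyte stage that carries both CD4 and CD8. The control mice carried the floxed alleles but no Cre transgene, so carrying Cre and losing Rnmt cannot be told apart here. The labels do not say whether each library came from a separate animal, and p-values then measure only the spread between these libraries. The comparison asks how transcripts of cell division differ in resting T cells that lack RNMT.

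Cells that leave quiescence copy their DNA in S phase and then raise a late wave of transcripts in G2 and M phase. The CDK1 kinase with its cyclins starts mitosis, the spindle of microtubules and kinesin motors captures chromosomes at their kinetochores, a checkpoint holds the anaphase-promoting complex (APC/C) back until every chromosome is attached, and cytokinesis then parts the daughter cells. In non-dividing cells the DREAM complex keeps these genes low, whereas B-MYB and FOXM1, with the MuvB core, activate them in dividing cells. Naïve T cells rest in G0 and take up this programme after activation. In bulk RNA, a larger share of dividing cells and more of these transcripts per cell cannot be told apart.

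Library depth was 8873413 to 11277764 sense counts in genes, so 3 counts, taken as the floor of detection, were 0.266 to 0.338 CPM (counts per 1e6 gene counts) before scaling. Levels are given as TMM-scaled CPM. The share of unique reads outside genes was 36.1% to 46.1% in controls and 31.8% to 47.9% in Rnmt cKO libraries. The targeted gene, Rnmt, was at 51.5, 58.7 and 57.9 CPM in controls and 42.0, 37.5 and 26.6 CPM in Rnmt cKO libraries, a log2 fold change of -0.67 ± 0.20 (SE; edgeR exact test, adjusted p = 0.000350), with counts taken over the whole gene and not the deleted exon alone. All 12 markers of naïve CD4 T cells were expressed, with summed levels of 7380 to 7709 CPM in controls and 8204 to 8838 CPM in Rnmt cKO libraries. They did not move together, as 4 were higher and 2 lower by the edgeR exact test. Of all tested genes, 8.0% were higher and 6.84% lower. Of the genes of the sorting gate, Cd4 was at 688, 657 and 661 CPM in controls and 827, 823 and 909 CPM in Rnmt cKO libraries, and Cd44 at 36.8, 37.6 and 53.3 CPM and then 18.5, 22.9 and 20.3 CPM, both without overlap. Cd3e was at 154, 137 and 163 CPM and then 142, 137 and 155 CPM, with overlap, and Cd8a at 2.82, 2.89 and 2.87 CPM and then 0.951, 1.77 and 1.88 CPM.

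Summed levels of B cell, plasma cell and myeloid markers were above the controls in every Rnmt cKO library and highest in Rnmt cKO 2, while those of CD8 and regulatory T cell markers were below. Over all tested genes, 8.0% were higher and 6.84% lower by the edgeR exact test, against which the counts of markers can be read. The B cell list held 12 tested genes, of which 7 rose, and its summed level was 62.5 to 71.9 CPM in controls and 87.0, 135 and 99.3 CPM in Rnmt cKO 1, 2 and 3. Of 14 myeloid markers 6 could be tested and 3 rose, with sums of 10.3 to 11.9 CPM in controls and 19.5, 46.1 and 29.2 CPM in the Rnmt cKO libraries. Of 7 plasma cell markers 3 were tested and 2 rose, with sums of 49.4 to 55.9 and 66.8 to 88.2 CPM. One of them, Jchain, the joining chain of secreted antibodies, was at 5.60, 27.4 and 12.4 CPM in Rnmt cKO 1, 2 and 3 and at most 1.88 CPM in controls. Of 7 germinal centre B cell markers 3 were tested and 1 rose, with overlapping sums of 31.9 to 34.7 and 33.2 to 49.0 CPM. Of 6 immature thymocyte genes 3 were tested and 2 rose, with sums of 38.9 to 49.5 and 54.0 to 61.2 CPM, and Ptcra, the pre-TCR alpha chain, had 0 counts in all 6 libraries. Of 10 genes of recent T cell activation 9 were tested, 5 rose and 1 fell, with sums of 367 to 383 and 423 to 486 CPM. Of 15 memory and effector genes 6 were tested, 3 rose and 3 fell, with sums of 199 to 202 and 189.8 to 228 CPM. Regulatory T cell genes had 1 rise and 2 falls among 8 tested, with sums of 290 to 329 and 267 to 277 CPM. Both CD8 T cell genes were lower, with sums of 21.7 to 23.3 and 13.5 to 17.3 CPM. The call on Cd8a was marginal (edgeR exact test, adjusted p = 0.0482) and held in only 4 of 14 alternatives. Both tested erythroid genes were lower, and none of 5 NK cell genes reached the expression filter. The part of these cells in the results was not tested.

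Most transcripts of mitosis were scarce in control libraries and more abundant in those of Rnmt cKO mice. The edgeR exact test put 54 of the 60 genes higher, none was lower, 5 did not pass the threshold of an adjusted p under 0.05, and Cdc25c lay under the expression filter of more than 1 CPM in at least 3 libraries. Over all 12336 tested genes, 8.0% were higher and 6.84% were lower. The median log2 fold change was 1.98 over the 59 genes past the filter and 0.01 over all tested genes. The filter bears on this count, because 19 of the 59 were under 1 CPM in at least 1 control and so needed the Rnmt cKO libraries to pass, 6 of them with all 3 controls under it. Without a filter, 55 of all 60 were higher, where 3.24% of 27286 genes were. Where all 6 libraries had to exceed 1 CPM, 36 of 40 were higher, where 7.52% of 11232 genes were. Without Rnmt cKO 2, the library with the most reads from B cell and myeloid genes, 45 of 53 were higher at a median log2 fold change of 1.69, where 5.31% of genes were higher. Leaving out control 1, control 2, control 3, Rnmt cKO 1 or Rnmt cKO 3 instead gave 51, 53, 53, 47 and 50 higher, where 6.11%, 5.38%, 5.47% and 5.52% of genes were for the first 4 and 1221 of 12181 genes without Rnmt cKO 3. DESeq2 gave 52 (5.69% of genes), the quasi-likelihood test 54 (6.43%), that test with the share of reads outside genes as a covariate 57 (13.7%), DESeq2 size factors 54 (7.47%), library size alone 57 (15.7%), and a minimum of 10 CPM 20 of 23 (7.92%).

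Every one of the 60 transcripts had a higher mean in Rnmt cKO cells. Every Rnmt cKO library lay above every control for 58 of the 60, and for 16.6% of all tested genes. The rise was 4-fold or more for 29 of the 59 tested genes and 2-fold or more for 45, while 9 rose by less than 2-fold. The plot of levels by library shows how far apart the groups stood for each gene.

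**Figure D1:**
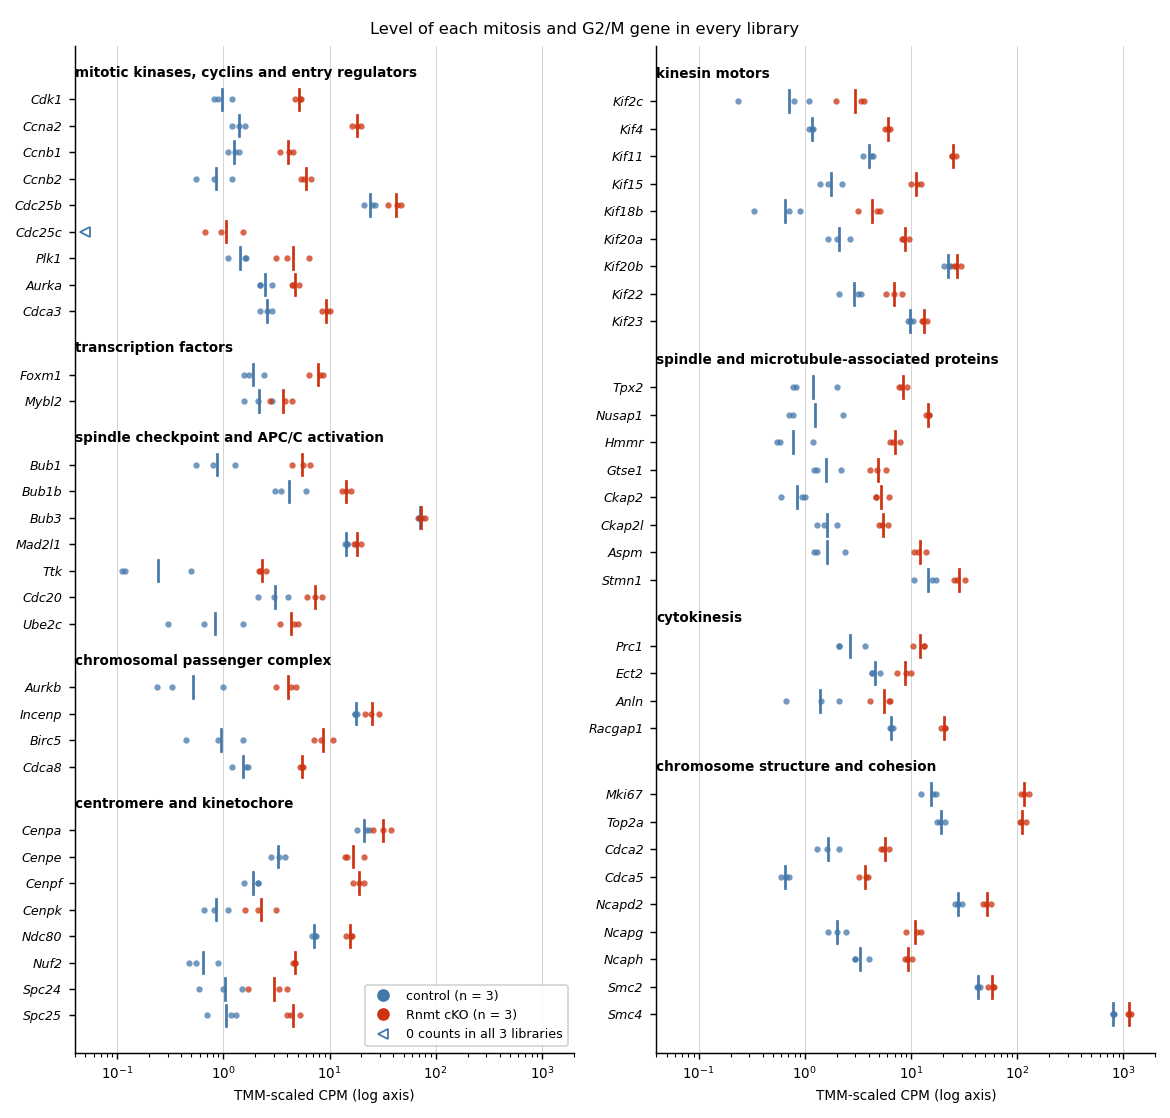
Level of the 60 mitosis and G2/M genes in each library, in TMM-scaled CPM on a log axis, grouped by role. Points are libraries (3 control, 3 Rnmt cKO), vertical bars are group means, and the open triangle marks Cdc25c, which had 0 counts in all 3 controls. The groups overlap for Bub3 and Mybl2 alone.

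Kinases, cyclins and other regulators of mitotic entry were 9 of the genes, and the 8 that could be tested all rose. Ccna2, which encodes cyclin A2 (chromosome 3, 36564865 to 36572150, mm10), had the largest log2 fold change of the tested mitosis genes. It was at 1.41, 1.60 and 1.21 CPM in controls and 16.2, 19.8 and 18.1 CPM in Rnmt cKO libraries. The lowest Rnmt cKO value was thus far above the highest control, and the log2 fold change was 3.66 ± 0.13 (SE; edgeR exact test, adjusted p = 8.44e-49). Cdk1, the kinase that drives entry into mitosis, rose from 0.979 ± 0.208 to 5.12 ± 0.325 CPM (SD, n = 3). Its partners Ccnb1 and Ccnb2, the B-type cyclins, rose from 1.27 ± 0.155 to 4.03 ± 0.581 CPM and from 0.858 ± 0.324 to 5.95 ± 0.655 CPM. Both have pseudogenes to which reads could also map. Plk1, the polo-like kinase, was at 1.65, 1.60 and 1.10 CPM in controls and 4.02, 6.41 and 3.14 CPM in Rnmt cKO libraries, with Rnmt cKO 2 the highest.

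Cdc25b, a phosphatase that activates CDK1, had the highest level and the largest gain in CPM of the entry regulators, 17.6 CPM, but the smallest log2 fold change. It was at 26.8, 25.0 and 21.1 CPM in controls and 47.2, 35.3 and 43.2 CPM in Rnmt cKO libraries, without overlap, at a log2 fold change of 0.78 ± 0.16 (SE). Its relative Cdc25c, which acts at mitotic entry itself, had 0 counts in every control and 9, 8 and 17 counts in Rnmt cKO libraries. Replacing the controls by 3 counts per library, it was at least 3.20-fold higher in Rnmt cKO cells. Aurka, a kinase of the centrosome, rose from 2.45 ± 0.389 to 4.68 ± 0.380 CPM, a call that was lost without control 1 (edgeR exact test, adjusted p = 0.0511) and with DESeq2 (adjusted p = 0.0625). Cdca3, a trigger of mitotic entry, rose from 2.56 ± 0.343 to 9.30 ± 0.807 CPM.

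The 2 transcription factors of the late wave differed in their calls. Foxm1 was at 1.76, 2.40 and 1.55 CPM in controls and 8.77, 8.18 and 6.36 CPM in Rnmt cKO libraries, a log2 fold change of 2.01 ± 0.22 (SE; edgeR exact test, adjusted p = 2.59e-11). It shares exonic bases with Tex52 on its strand, so part of its reads is uncertain. Mybl2, which encodes B-MYB, was at 2.12, 2.89 and 1.55 CPM in controls and 4.44, 3.80 and 2.78 CPM in Rnmt cKO libraries. The lowest Rnmt cKO value fell below control 2, and the log2 fold change of 0.73 ± 0.30 did not pass the threshold (edgeR exact test, adjusted p = 0.120). Without Rnmt cKO 3 it did pass (adjusted p = 0.0254). The difference between the changes of Foxm1 and Mybl2 was not tested.

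Of 7 spindle checkpoint genes and APC/C activators, 5 rose. Ttk, the kinase that starts checkpoint signalling, had the largest fold change here, from 0.118, 0.499 and 0.110 CPM in controls to 2.22, 2.53 and 2.15 CPM in Rnmt cKO libraries, a log2 fold change of 3.13 ± 0.39 (SE). At 1 to 5 counts per control library the size of this fold is imprecise, though the groups stood well apart. Ttk passed the filter only through the Rnmt cKO libraries, which bears on this rank. Bub1 rose from 0.881 ± 0.377 to 5.53 ± 1.01 CPM, Bub1b from 4.20 ± 1.55 to 14.4 ± 1.53 CPM, Cdc20, which activates the APC/C, from 3.06 ± 0.991 to 7.29 ± 1.15 CPM, and Ube2c, the ubiquitin-conjugating enzyme of the APC/C, from 0.830 ± 0.631 to 4.37 ± 0.862 CPM.

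The other 2 checkpoint genes did not pass the threshold. Bub3, a partner of BUB1 and BUBR1, had the highest level of this group. It was at 74.4, 71.4 and 67.9 CPM in controls and 69.7, 70.9 and 78.5 CPM in Rnmt cKO libraries, so the groups overlapped, and the log2 fold change was 0.04 ± 0.07 (edgeR exact test, adjusted p = 0.889). Mad2l1, which encodes the MAD2 protein that binds CDC20, was at 14.7, 14.6 and 14.0 CPM in controls and 17.1, 19.7 and 17.7 CPM in Rnmt cKO libraries. These groups did not overlap, but the log2 fold change of 0.34 ± 0.06 did not pass (edgeR exact test, adjusted p = 0.102). It passed without scaling beyond library size (adjusted p = 0.0187), where the median gene was at 0.14 on the log2 scale, and with the share of reads outside genes as a covariate (adjusted p = 0.0384).

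All 4 genes of the chromosomal passenger complex rose. Birc5, which encodes survivin (chromosome 11, 117849251 to 117855743, mm10), was at 1.53, 0.898 and 0.442 CPM in controls and 10.8, 8.35 and 7.08 CPM in Rnmt cKO libraries, a log2 fold change of 3.19 ± 0.45 (SE; edgeR exact test, adjusted p = 8.19e-18). The kinase of the complex, Aurkb, rose from 0.522 ± 0.416 to 4.09 ± 0.861 CPM, and Cdca8, which encodes borealin, from 1.52 ± 0.265 to 5.47 ± 0.185 CPM. Incenp, the scaffold subunit, was the most abundant and had the smallest log2 fold change. It was at 18.2, 17.2 and 17.3 CPM in controls and 29.2, 24.4 and 21.4 CPM in Rnmt cKO libraries, with no overlap, and its log2 fold change of 0.50 ± 0.13 passed (edgeR exact test, adjusted p = 0.00800). The call was lost without Rnmt cKO 1 (adjusted p = 0.106) and without control 2 (adjusted p = 0.0743).

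All 8 centromere and kinetochore genes rose. Cenpf, a large kinetochore protein of G2 and M phase (chromosome 1, 189640606 to 189688086, mm10), was at 2.12, 2.10 and 1.55 CPM in controls and 19.1, 20.9 and 16.8 CPM in Rnmt cKO libraries. Its log2 fold change of 3.29 ± 0.16 was the largest of this group (edgeR exact test, adjusted p = 1.04e-43). Cenpe, a kinetochore motor, rose from 3.31 ± 0.486 to 16.6 ± 4.01 CPM. The subunits of the NDC80 complex, which binds microtubules, rose as well, Ndc80 from 7.16 ± 0.304 to 15.5 ± 1.03 CPM, Nuf2 from 0.640 ± 0.227 to 4.68 ± 0.0987 CPM, Spc24 from 1.03 ± 0.456 to 2.99 ± 1.17 CPM and Spc25 from 1.07 ± 0.327 to 4.52 ± 0.635 CPM. Cenpa, the histone H3 variant that marks centromeres, had the highest level and the smallest fold change, from 18.3, 23.7 and 22.0 CPM to 32.2, 37.6 and 25.5 CPM, a log2 fold change of 0.57 ± 0.20. The calls on Cenpa, Cenpk and Spc24 were lost when single libraries were left out. Without Rnmt cKO 2 the adjusted p of the edgeR exact test was 0.102 for Cenpa, 0.118 for Cenpk and 0.0660 for Spc24. Without control 1 it was 0.0815 for Cenpa and 0.0655 for Spc24, and without control 3 it was 0.0800 for Cenpk. The call on Cenpk was also lost with DESeq2 (adjusted p = 0.0774), whereas Ndc80, at a log2 fold change of 1.12, passed in all 15 alternatives. Cenpk, a subunit of the constitutive centromere network, was at 0.861 ± 0.220 and 2.28 ± 0.768 CPM in all libraries of each group.

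Of 9 kinesin motors, 7 rose. Kif11, the motor that pushes spindle poles apart, gained most in CPM, from 4.03 ± 0.432 to 24.9 ± 1.22 CPM. Kif18b, which shortens astral microtubules, had the largest log2 fold change, 2.72 ± 0.37 (SE; edgeR exact test, adjusted p = 2.52e-10), with 0.705, 0.898 and 0.331 CPM in controls and 3.17, 5.06 and 4.75 CPM in Rnmt cKO libraries. It passed the filter only through the Rnmt cKO libraries, which bears on this rank. Kif15, Kif4, Kif2c, Kif20a and Kif22 rose by log2 fold changes between 1.25 and 2.68. Kif20b had the highest mean CPM of the kinesins over all 6 libraries, not corrected for length, and did not pass. It was at 23.2, 22.8 and 20.3 CPM in controls and 26.5, 29.6 and 25.3 CPM in Rnmt cKO libraries, without overlap, at a log2 fold change of 0.30 ± 0.09 (edgeR exact test, adjusted p = 0.110). Kif23, the motor of the centralspindlin complex in cytokinesis, was at 9.76, 10.4 and 9.28 CPM in controls and 14.2, 12.9 and 12.8 CPM in Rnmt cKO libraries. The Kif23 groups were also separate, and its log2 fold change of 0.43 ± 0.06 lay just outside the threshold (edgeR exact test, adjusted p = 0.0560). It passed without Rnmt cKO 3 (adjusted p = 0.0451) and under 4 other alternatives.

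All 8 genes of spindle and microtubule-associated proteins rose, and their median log2 fold change of 2.68 was the highest of the role groups. Only 4 of the 8 were over 1 CPM in every control. The others needed the Rnmt cKO libraries to pass the filter, so the rank depends on genes let in by the group where they were high. Nusap1, which bundles spindle microtubules (chromosome 2, 119618298 to 119651244, mm10), was at 0.705, 2.30 and 0.773 CPM in controls and 14.9, 13.8 and 14.9 CPM in Rnmt cKO libraries. Control 2 stood above the other controls but far below every Rnmt cKO library, and the log2 fold change was 3.48 ± 0.47 (SE; edgeR exact test, adjusted p = 1.66e-31). Hmmr, Tpx2 and Aspm, which organise spindle poles and assembly, were likewise highest among controls in control 2, and rose to 6.99 ± 0.802, 8.33 ± 0.770 and 12.1 ± 1.67 CPM from 0.779 ± 0.363, 1.20 ± 0.692 and 1.63 ± 0.660 CPM. Stmn1, which encodes the microtubule-destabilising stathmin, had the highest level and the largest gain of this group, 13.9 CPM, but the smallest log2 fold change. It was at 15.9, 17.1 and 10.6 CPM in controls and 27.3, 25.6 and 32.3 CPM in Rnmt cKO libraries, a log2 fold change of 0.97 ± 0.23.

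The 4 cytokinesis genes all rose. Prc1, which crosslinks the microtubules of the central spindle, had the largest log2 fold change, 2.20 ± 0.28 (SE), from 2.12, 3.69 and 2.10 CPM in controls to 13.2, 13.2 and 10.4 CPM in Rnmt cKO libraries. Racgap1, the partner of KIF23 in centralspindlin, was the most abundant, at 6.70, 6.29 and 6.41 CPM and then 20.9, 19.2 and 21.1 CPM. Ect2, the exchange factor that activates RhoA at the cleavage furrow, had the smallest fold change, from 5.06, 4.29 and 4.31 CPM to 8.88, 10.1 and 7.44 CPM, a log2 fold change of 0.96 ± 0.15. None of these 3 genes overlapped between the groups. Anln, which encodes the furrow protein anillin, rose from 1.39 ± 0.717 to 5.57 ± 1.25 CPM.

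All 9 genes of chromosome structure and cohesion rose, and they included the most abundant transcripts. Mki67, which encodes the Ki-67 antigen that marks cycling cells (chromosome 7, 135689784 to 135716361, mm10), was at 17.2, 16.1 and 12.5 CPM in controls and 115, 128 and 108 CPM in Rnmt cKO libraries. Its log2 fold change of 2.94 ± 0.16 was the largest of this group (edgeR exact test, adjusted p = 2.12e-103). Top2a, the topoisomerase that untangles sister chromatids (chromosome 11, 98992943 to 99024189, mm10), was at 20.8, 18.8 and 17.6 CPM in controls and 107, 121 and 108 CPM in Rnmt cKO libraries, a log2 fold change of 2.56 ± 0.09 (edgeR exact test, adjusted p = 9.60e-104). The 2 genes were thus expressed at similar CPM, and in both the order of the Rnmt cKO libraries began with Rnmt cKO 2.

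Smc4, the condensin ATPase (chromosome 3, 69004738 to 69034623, mm10), was far above every other gene of mitosis. It was at 799, 807 and 803 CPM in controls and 1136, 1170 and 1093 CPM in Rnmt cKO libraries, a log2 fold change of 0.50 ± 0.03 (edgeR exact test, adjusted p = 8.96e-06). The controls differed from each other by less than 10 CPM, and the groups were separate. Smc2, its partner, had the smallest fold change, from 43.1, 41.5 and 44.4 CPM to 52.6, 59.6 and 61.0 CPM, a log2 fold change of 0.43 ± 0.07. Ncapd2, Ncapg and Ncaph, the other subunits of condensin I, rose by log2 fold changes of 0.89 ± 0.09, 2.43 ± 0.20 and 1.52 ± 0.15 (SE). Cdca5, which encodes sororin and protects cohesion, rose from 0.656 ± 0.0536 to 3.65 ± 0.392 CPM, and Cdca2, a phosphatase subunit on chromosomes, from 1.66 ± 0.407 to 5.63 ± 0.551 CPM.

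Median fold changes were smaller above 10 CPM, and the median gain in CPM was largest above 30 CPM. Split by the mean over all 6 libraries, the 29 tested genes under 5 CPM had a median log2 fold change of 2.09 and a median gain of 3.87 CPM. The 13 genes from 5 to 10 CPM had medians of 2.20 and 9.49 CPM, the 10 genes from 10 to 30 CPM had medians of 0.77 and 9.41 CPM, and the 7 genes above 30 CPM had medians of 0.78 and 23.7 CPM. Low genes reach the first class only with a low Rnmt cKO level, so the classes are a description. Of the 60 genes, 50 gained between 2 and 20 CPM, with a median of 4.96 CPM. Of the genes that did not pass the threshold, Kif20b gained 5.06 CPM, Mad2l1 3.77 CPM and Kif23 3.49 CPM, which lie inside that range, while Bub3 gained 1.81 CPM and Mybl2 1.49 CPM. Their control levels, other than that of Mybl2, were among the higher ones. The plot of change against level shows the same for each gene.

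**Figure D2:**
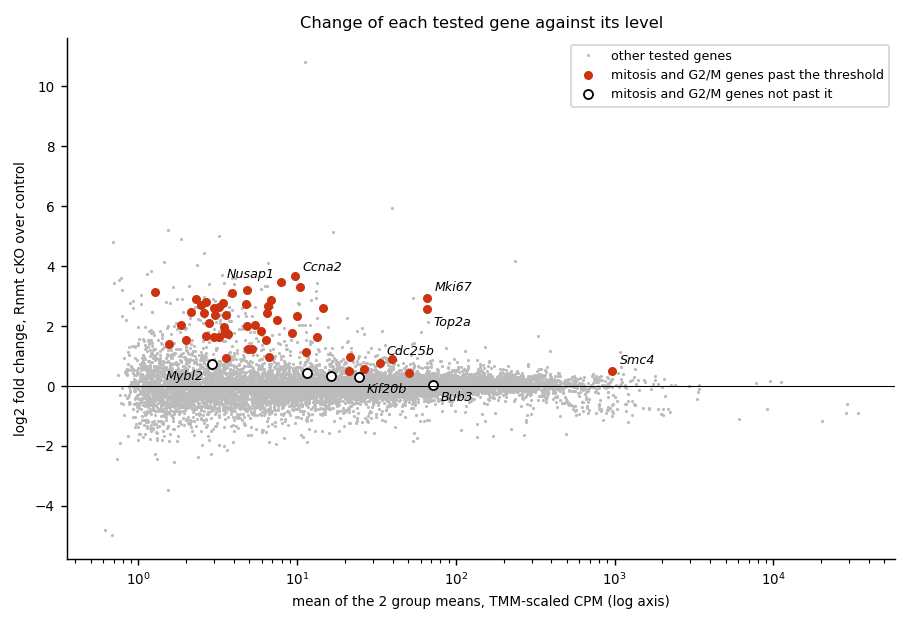
Log2 fold change (Rnmt cKO over control) of each tested gene against the mean of the 2 group means in TMM-scaled CPM on a log axis. Filled red points are the 54 mitosis and G2/M genes past the threshold, open points the 5 that were not, and grey points other tested genes. Mki67 and Top2a stand apart at 2.94 and 2.56, and Smc4 lies at the far right at 0.50.

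Levels per length were compared between genes as RPKM, the CPM divided by the exonic length in kilobases. In controls the order began with Smc4 at 186 ± 0.990 RPKM (SD, n = 3), followed by Bub3 at 15.9 ± 0.725, Cenpa at 13.0 ± 1.66, Stmn1 at 10.1 ± 2.40 and Smc2 at 7.96 ± 0.267 RPKM. Cenpa and Stmn1 are neighbours that did not differ beyond their spread. In Rnmt cKO cells Smc4 was at 263 ± 8.91 RPKM, and the next were Top2a at 21.5, Stmn1 at 19.8 ± 2.41, Cenpa at 19.4 ± 3.72 and Bub3 at 16.3 ± 1.07 RPKM. Top2a had been at 3.65 RPKM in controls and Mki67 moved from 1.51 to 11.6 RPKM. The lowest tested mitosis gene was Ttk in both groups.

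Genes whose proteins form a complex or work together were uneven in controls and closer together in Rnmt cKO cells in 4 of 6 sets. The ratio of the highest to the lowest level per length within the chromosomal passenger complex averaged 35.9 ± 14.1 in control libraries (SD, n = 3) and 3.74 ± 0.592 in those of Rnmt cKO mice. In controls Incenp stood at 5.41 ± 0.174 RPKM beside Birc5 at 0.281 ± 0.160 and Aurkb at 0.267 ± 0.213 RPKM, and in Rnmt cKO cells it stood at 7.69 ± 1.20 RPKM beside 2.57 ± 0.552 and 2.09 ± 0.441 RPKM. For the NDC80 complex the ratio was 15.0 ± 4.16 in controls and 6.05 ± 2.43 in Rnmt cKO cells (SD, n = 3), with Ndc80 highest in both groups. Within condensin I it was 349 ± 66.5 and 89.9 ± 13.0, with Smc4 highest and Ncapg lowest. Among the checkpoint genes it was 300.3 ± 180.0 and 20.7 ± 2.77, with Bub3 highest and Ttk lowest. In all 4 sets the Rnmt cKO libraries lay below the controls. These ratios rest on the lowest gene of each set, which had few counts in controls.

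In the other 2 sets the ratio did not fall. Between the centralspindlin genes it was 1.37 ± 0.103 in controls, with Kif23 above Racgap1, and 1.70 ± 0.104 in Rnmt cKO cells, with Racgap1 above Kif23. Kif23 was at 2.89 ± 0.163 and then 3.91 ± 0.221 RPKM, and Racgap1 at 2.11 ± 0.0694 and then 6.65 ± 0.348 RPKM. Among Cdk1 and its mitotic cyclins the ratio was 3.08, 3.89 and 1.63 in controls and 4.19, 4.67 and 4.15 in Rnmt cKO libraries. Ccnb2 and Ccnb1, at 0.560 ± 0.212 and 0.511 ± 0.0622 RPKM, were the highest of these 4 genes in controls and did not differ beyond their spread, and Ccna2 was the highest in Rnmt cKO cells at 4.97 ± 0.505 RPKM. Sets were put together after the values were seen.

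**Figure D3:**
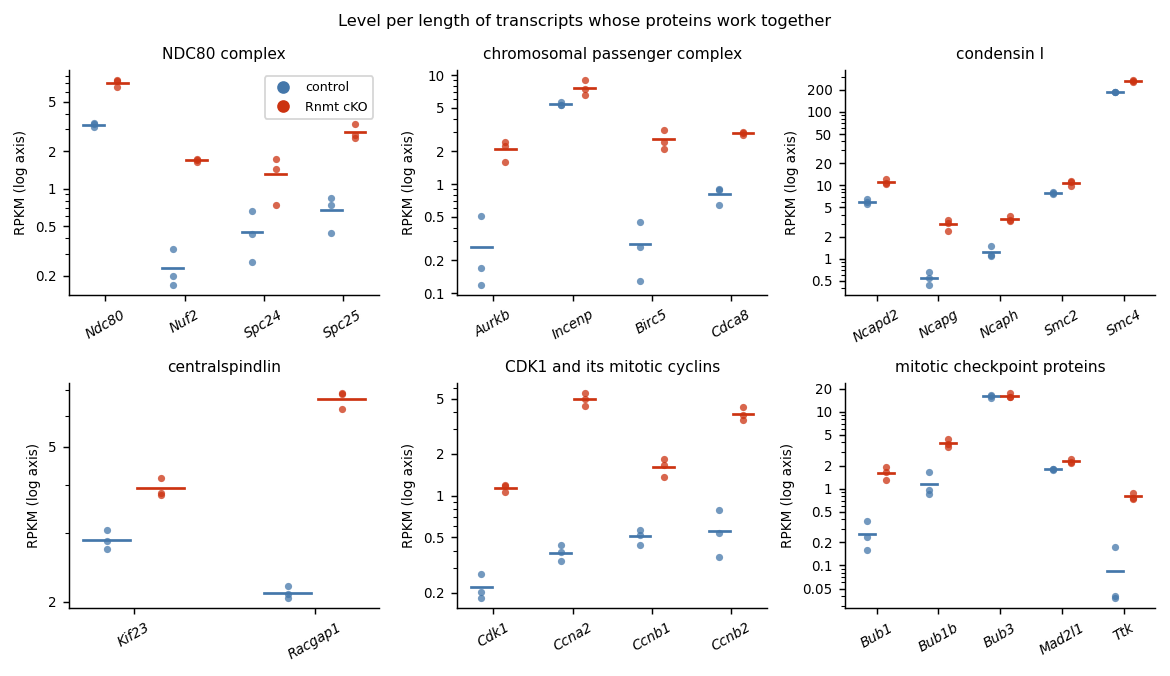
RPKM on log axes, with its own scale in each panel, of genes whose proteins work together, in control and Rnmt cKO libraries. Points are libraries (3 of each group) and bars are group means. Ndc80, Incenp, Smc4 and Bub3 are the highest of their sets in both groups, and Racgap1 and Ccna2 are so in Rnmt cKO libraries alone.

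The genes stood at a median of 1.90, 2.00 and 1.67 above the control mean in Rnmt cKO 1, 2 and 3 (log2 CPM with a prior count of 2). Of the 59 tested genes, 31 were highest among Rnmt cKO libraries in Rnmt cKO 2, 18 in Rnmt cKO 1 and 10 in Rnmt cKO 3, and 33 were lowest in Rnmt cKO 3. Among controls 30 were highest in control 2 and 33 were lowest in control 3. The summed level of the 60 genes was 1193, 1213 and 1168 CPM in controls and 2110, 2195 and 2030 CPM in Rnmt cKO libraries, a ratio of 1.77. Smc4 held 67.4% of the control sum. Without it the sums were 394, 406 and 365 CPM and 974, 1025 and 937 CPM, a ratio of 2.52.

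Other lists of cell division genes were counted in the same fit. Among 67 other mitosis genes, 65 were tested, of which 39 rose and none fell, where 8.0% of all tested genes rose, and the median was 1.12 on the log2 scale. This count depended on the filter, and was 13 of 34 where more than 1 CPM was required in all 6 libraries, where 7.52% of genes rose. The largest fitted rise was that of Sapcd2, a spindle orientation protein, which had 0, 1 and 0 counts in controls and 13, 13 and 18 counts in Rnmt cKO libraries, or 1 and 44 in all, a ratio of 37.4 with an exact 95% counting interval of 6.37 to 1509. Of 44 DNA replication and S phase genes, 25 rose and none fell, beside the same 8.0%, with a median of 0.64. Mcm10, a DNA replication factor, had the largest fold change of this list, 2.89 ± 0.19 on the log2 scale. It rose from 0.588, 0.599 and 0.884 CPM to 5.60, 5.57 and 4.39 CPM. Sapcd2 and Mcm10 passed the filter only through the Rnmt cKO libraries, which bears on both ranks.

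In the APC/C list and the DREAM and MuvB list, the share of genes that rose was near the 8.0% of all tested genes. Of 15 APC/C subunits, Anapc15 alone rose, from 20.3, 21.6 and 19.8 CPM to 46.1, 38.0 and 39.1 CPM, at a log2 fold change of 0.99 ± 0.09, and the median of the list was 0.06. Of 12 cohesin genes 3 rose, at a median of 0.06. Esco2, the acetyltransferase that establishes cohesion in S phase, had the largest fold change, 3.59 ± 0.22 on the log2 scale. It rose from 0.705, 0.699 and 0.442 CPM to 6.87, 9.20 and 6.54 CPM. Esco2 passed the filter only through the Rnmt cKO libraries, which bears on this rank. Where all 6 libraries had to exceed 1 CPM, 2 of 11 cohesin genes rose, where 7.52% of genes did. Smc1a and Smc3, which form the ring, rose by 0.27 ± 0.05 and 0.43 ± 0.04. Of 11 DREAM and MuvB genes, Lin37 alone rose, from 17.5, 17.6 and 16.8 CPM to 25.8, 22.0 and 23.8 CPM, at 0.46 ± 0.07, and the median was 0.21. The call on Lin37 was lost without Rnmt cKO 1 (edgeR exact test, adjusted p = 0.0705). Without scaling beyond library size, 5 of the 11 DREAM and MuvB genes were higher, where 15.7% of all genes were. Differences between the lists were not tested.

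**Figure D4:**
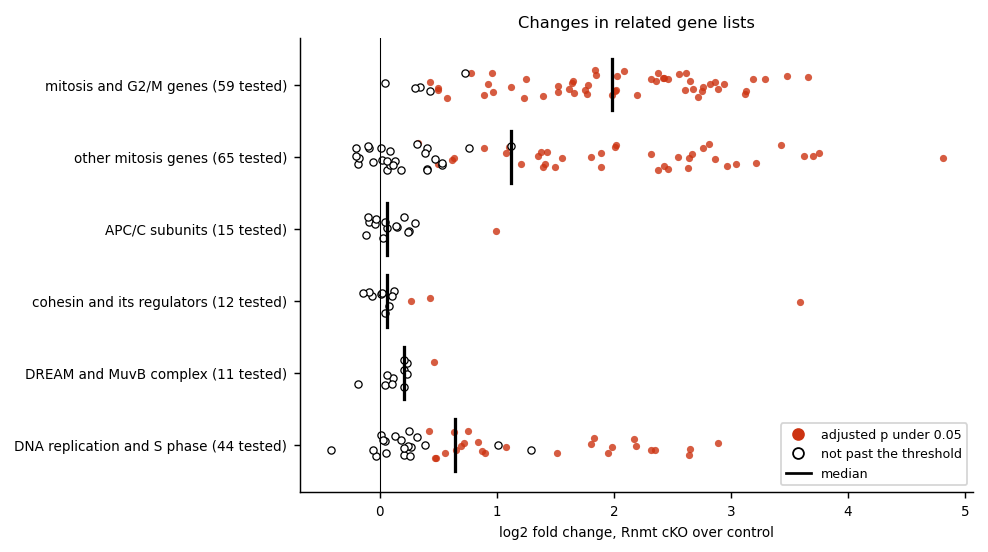
Log2 fold change (Rnmt cKO over control) of the tested genes of each list, with 1 point per gene. Red points passed an adjusted p under 0.05, open points did not, and black bars are medians. The medians run from 1.98 for the mitosis and G2/M genes and 1.12 for other mitosis genes to 0.06 for APC/C subunits and for cohesin.

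Promoter sequences are shown because 54 of the 60 genes rose. In background knowledge, late cell cycle promoters carry a CHR element, bound by the MuvB core, and CCAAT boxes, bound by NF-Y. RefSeq windows on GRCm38.p6 with 250 bases before and 50 bases after the transcription start were found for 49 of the 60 genes, in 55 windows. The genes without a window were Aurkb, Ccna2, Cdc25c, Cdca2, Foxm1, Incenp, Kif20a, Smc4, Spc24, Stmn1 and Tpx2. The windows below, read 5′ to 3′ on the strand of the gene, belong to a pair of genes with large gains in CPM (Mki67 and Top2a), to the kinase that starts mitosis (Cdk1), to 2 of the largest fold changes (Cenpf and Nusap1) and to 2 genes that did not pass the threshold (Bub3 and Mad2l1). Capitals mark TTTGAA and CCAAT or their reverse complements TTCAAA and ATTGG.
Mki67 (chr7:135716330-135716629, minus strand): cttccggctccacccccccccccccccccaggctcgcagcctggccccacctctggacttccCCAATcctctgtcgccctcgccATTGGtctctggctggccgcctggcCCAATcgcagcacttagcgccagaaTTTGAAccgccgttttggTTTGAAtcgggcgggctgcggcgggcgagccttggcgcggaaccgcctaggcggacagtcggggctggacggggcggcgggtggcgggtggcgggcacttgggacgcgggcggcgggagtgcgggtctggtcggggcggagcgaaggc
Top2a (chr11:99024140-99024439, minus strand): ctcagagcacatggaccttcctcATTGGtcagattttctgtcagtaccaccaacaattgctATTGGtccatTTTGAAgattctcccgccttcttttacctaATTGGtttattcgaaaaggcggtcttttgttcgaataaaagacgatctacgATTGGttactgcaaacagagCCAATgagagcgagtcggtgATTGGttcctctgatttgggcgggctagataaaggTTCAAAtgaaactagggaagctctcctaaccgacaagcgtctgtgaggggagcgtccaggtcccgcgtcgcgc
Cdk1 (chr10:69352863-69353162, minus strand): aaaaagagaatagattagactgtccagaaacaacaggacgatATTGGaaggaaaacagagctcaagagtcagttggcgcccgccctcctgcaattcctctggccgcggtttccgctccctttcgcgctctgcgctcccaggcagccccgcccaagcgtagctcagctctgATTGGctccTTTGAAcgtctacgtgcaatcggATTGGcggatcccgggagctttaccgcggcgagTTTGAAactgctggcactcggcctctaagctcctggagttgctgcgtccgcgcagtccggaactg
Cenpf (chr1:189688037-189688336, minus strand): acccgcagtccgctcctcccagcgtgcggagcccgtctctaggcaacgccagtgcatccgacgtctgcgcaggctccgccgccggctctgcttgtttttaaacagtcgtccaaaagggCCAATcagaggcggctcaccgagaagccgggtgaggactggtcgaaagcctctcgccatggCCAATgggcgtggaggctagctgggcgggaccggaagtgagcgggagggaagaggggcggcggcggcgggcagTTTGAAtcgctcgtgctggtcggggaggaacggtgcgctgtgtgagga
Nusap1 (chr2:119618048-119618347, plus strand): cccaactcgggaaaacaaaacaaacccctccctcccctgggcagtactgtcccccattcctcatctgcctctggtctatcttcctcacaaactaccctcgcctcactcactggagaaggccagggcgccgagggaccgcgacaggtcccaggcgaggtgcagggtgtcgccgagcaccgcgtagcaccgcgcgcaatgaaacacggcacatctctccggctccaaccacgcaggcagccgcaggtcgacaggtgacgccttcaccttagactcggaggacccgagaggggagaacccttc
Bub3 (chr7:131560120-131560419, plus strand): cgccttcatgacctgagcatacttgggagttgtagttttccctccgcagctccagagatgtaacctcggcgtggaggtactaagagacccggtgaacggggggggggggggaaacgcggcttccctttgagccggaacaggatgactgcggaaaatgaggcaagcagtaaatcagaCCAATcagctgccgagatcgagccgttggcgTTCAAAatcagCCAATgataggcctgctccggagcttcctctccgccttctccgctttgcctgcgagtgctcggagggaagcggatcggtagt
Mad2l1 (chr6:66534971-66535270, plus strand): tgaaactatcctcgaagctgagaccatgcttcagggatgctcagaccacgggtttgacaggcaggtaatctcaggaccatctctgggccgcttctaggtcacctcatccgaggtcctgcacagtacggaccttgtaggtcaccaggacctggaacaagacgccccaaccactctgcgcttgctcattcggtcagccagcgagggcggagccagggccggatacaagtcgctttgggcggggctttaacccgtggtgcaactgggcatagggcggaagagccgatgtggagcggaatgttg

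The windows of Mki67, Top2a and Cdk1 each held 2 matches to TTTGAA, and those of Cenpf and Bub3 held 1. Matches to CCAAT numbered 6 in Top2a, 3 in Mki67 and in Cdk1, and 2 in Cenpf and in Bub3. Nusap1, with a log2 fold change of 3.48, and Mad2l1, with 0.34, had no match to either. The Mad2l1 window ended at base 66535270, before the gene start at 66535390 in GENCODE vM21, and so leaves out the bases around that start. Matches were present beside a large change in Cenpf and beside a small one in Bub3. No match says only that these letters are not in this window.

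Counted on either strand, TTTGAA was in 40 of the 55 windows of mitosis genes (72.7%), in 17.9% of all 32851 windows and in 12.3% of the windows of tested genes. CCAAT was in 43 of 55 (78.2%), in 37.4% of all and in 38.0% of those of tested genes. TTTAAA, a variant of the CHR element with other letters than TTTGAA, was in 12 (21.8%), in 13.2% of all and in 8.98% of those of tested genes. In the related lists, TTTGAA was in 43.3% of 60 windows of other mitosis genes, 36.4% of 11 windows of DREAM and MuvB genes, 12.5% of 8 windows of cohesin genes, 12.2% of 41 windows of DNA replication genes and 11.8% of 17 windows of APC/C subunits. The matches to TTTGAA in mitosis genes lay near the start, 40 of 53 of them from 75 bases before it to the end of the window, at a median of 9 bases before it. The median of the CCAAT matches was 71 bases before the start. Matches were counted per window, so a site shared by overlapping windows of a gene, as in Ect2 and Bub3, was counted in each. By gene, 37 genes with TTTGAA had a median log2 fold change of 2.02 and 12 genes without it 1.64, and the ranges of 0.04 to 3.29 and 0.34 to 3.48 covered nearly the same span. The value of 0.34 is that of Mad2l1. The order was the other way for CCAAT, with medians of 1.85 in 37 genes with a match and 2.00 in 12 without, and for TTTAAA, with 1.66 in 11 genes and 2.03 in 38.

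**Figure D5:**
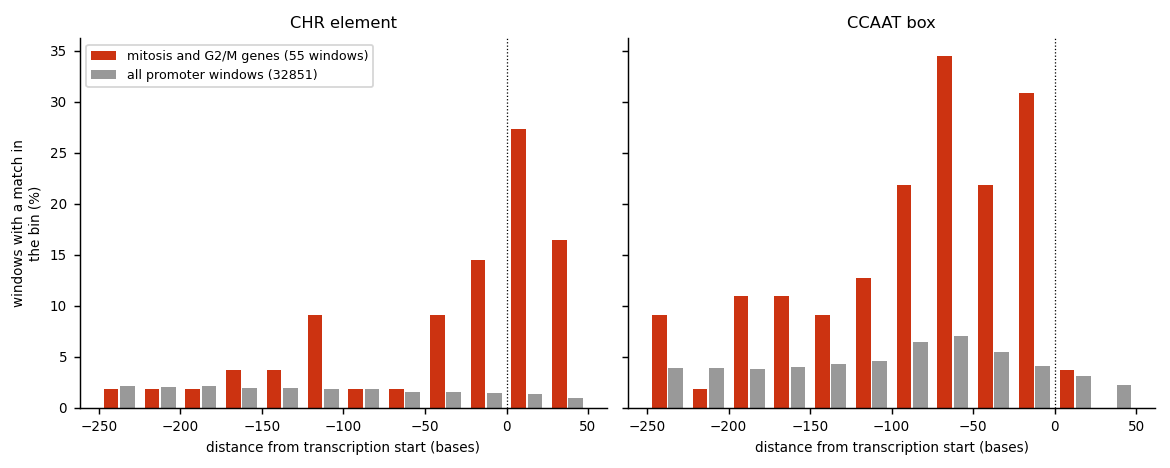
Share of promoter windows (in percent) with a match that begins in each bin of 25 bases, against the distance from the transcription start (dotted line), for TTTGAA (CHR element, left) and CCAAT (right), on either strand. Red bars are the 55 windows of mitosis and G2/M genes and grey bars all 32851 windows. TTTGAA was most frequent in the first 25 transcribed bases (27.3% against 1.31%) and CCAAT 51 to 75 bases before the start (34.5% against 6.99%).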

How the data were processed

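The authors aligned 75 bp paired-end reads of rRNA-depleted TruSeq libraries to mm10 with STAR 2.5.2b, using GENCODE vM12 basic, and deposited raw counts per gene and strand, without normalization. The counts of the sense strand were used, since dividing them by 1 constant per library gave the deposited signal columns (normalized reads) of the authors' edgeR table within 0.1% for every one of its 11221 genes. Its fold changes, p-values and adjusted p-values were not used. That table lists 40 of the 60 mitosis genes, and the other 20 were read from the count tables by Ensembl ID. Lengths and coordinates came from GENCODE vM21, which held 46488 of the 46983 genes. Reads in no gene or in several stayed out of library sizes.

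Genes over 1 CPM in at least 3 libraries were tested in edgeR 4.0.16 (R 4.3.3) with TMM scaling, tagwise dispersions and the exact test, with Benjamini-Hochberg adjustment over all 12336 tested genes and a threshold of 0.05. Standard errors came from log2 CPM with a prior count of 2. Alternatives were DESeq2 1.42.0, the quasi-likelihood test, other scalings and filters, and leaving out each library. Replicates of a group differed by more than counting noise (chi-square per degree of freedom 3.85 to 25.2), and intervals cover counting error only. In counts simulated for the 3 against 3 comparison with 200 genes changed, the exact test was checked before use. Motif search was tested on planted motifs.

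The genes and lists were chosen with earlier results of these data known. Named with values per library are, in each role group, the genes with the highest level and the largest and smallest log2 fold change, each gene that did not pass the threshold, overlapped or lay under the filter, the largest rise and fall in each related list, Rnmt, Cd3e, Cd4, Cd8a and Cd44. Some marker genes are not reported here. Others were chosen after their values were seen.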

Additional observations from a re-analysis of the deposited data

Results flagged for a closer look

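The comparisons above used reads on the strand of each gene. Reads on the opposite strand were above the controls in every Rnmt cKO library for 2 of the 9 genes with at least 100 such reads in all. The share of all genes that separated in this way on the opposite strand was not counted. On their own strand 16.6% of tested genes did, so the count is a description only. On the opposite strand of Smc4 there were 51, 45 and 37 counts in controls and 113, 137 and 125 counts in Rnmt cKO libraries, or 4.86 ± 1.01 and 11.6 ± 0.369 CPM (SD, n = 3), beside 803 and 1133 CPM on its own strand. On the opposite strand of Ccna2 there were 78, 87 and 85 counts in controls and 94, 124 and 132 counts in Rnmt cKO libraries, or 9.08 ± 0.361 and 10.7 ± 0.980 CPM. Exosc9 lies across from Ccna2 and shares exonic bases with it, whereas no annotated exon lies across from Smc4. Over all mitosis genes but Smc4, the opposite strand summed to 55.0 ± 1.23 and 57.7 ± 5.68 CPM, and the groups overlapped.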

How the results depend on the processing

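Of 59 tested mitosis genes, 44 passed the threshold in every alternative that tested them, Bub3 passed in none, and none was lower in any alternative. Bub3 turned to -0.04 on the log2 scale without Rnmt cKO 3, with values up to 0.07 over left-out libraries, and Cd3e, a marker, to 0.06 without scaling beyond library size. Leaving out each library gave 45 to 53 mitosis genes higher at medians of 1.69 to 1.96, where 53 rather than 59 genes passed the filter once an Rnmt cKO library was left out. A filter of more than 10 CPM in at least 3 libraries left 23 genes, of which 20 rose at a median of 1.11 and a ratio of summed levels of 1.66, and more than 1 CPM in all 6 libraries gave a median of 1.65. Without scaling beyond library size the ratio of sums was 1.93. Chosen after seeing the data, the 2 controls and 1 Rnmt cKO library with fewer reads outside genes gave a median of 1.79 with no test, and sums without Smc4 a ratio of 2.52.

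Over all genes, 1938 were higher and 535 lower without scaling beyond library size, so 78.4% rather than 53.9% of called genes were higher, and the median gene was at 0.14. With the share of reads outside genes as a covariate these were 1696 and 1466, and leaving out each library gave 643 to 1221 higher and 547 to 1285 lower. DESeq2 called 52 mitosis genes of 1340 genes in all and the quasi-likelihood test 54 of 1429.

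Same-numbered libraries did not deviate together (correlations of -0.21, -0.02 and -0.35). This cannot exclude a pairing, because the 3 deviations of a group depend on each other and other differences between libraries enter them. Control 1 and Rnmt cKO 3, each with the smallest share of reads outside genes in its group, correlated at 0.35. A replicate block in the quasi-likelihood fit gave 707 genes (431 higher, 276 lower), 45 mitosis genes higher at a median of 2.02, and 0 DREAM and MuvB genes higher.

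Counts of other mitosis genes higher were 13 and 8 with the filters of more than 1 CPM in all 6 libraries and of more than 10 CPM, and 18 to 34 over left-out libraries, and 2 were lower with the covariate. Of 15 APC/C subunits, 3 were higher without scaling and 3 with the covariate. With more than 1 CPM in all 6 libraries 2 were, and over left-out libraries 1 to 2. Over left-out libraries, 1 to 2 of 11 or 12 cohesin genes and 0 to 1 of 11 DREAM and MuvB genes were higher. Of these 11, 5 were higher without scaling and 4 with the covariate. DNA replication genes higher were 14 of 28 with more than 10 CPM. Over left-out libraries 0 to 1 DNA replication genes were lower, of 40 or 44 tested. Beyond fewer genes or libraries, the cause of these shifts was not tested. In the 150 bases before the start alone, TTTGAA was in 34.5% of the windows of mitosis genes. It was in 9.07% of all windows there and in 5.42% of those of tested genes. In the same order, TTTAAA was in 9.09%, 6.75% and 4.06%, and CCAAT in 69.1%, 24.5% and 27.7%.

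Controls held a median of 14.0 to 22.5 counts per mitosis gene, which limits the precision of folds.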
